A study of Mus musculus with 3 samples.

Results

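The G2 and M phase module is a set of 41 genes whose transcripts accumulate in cells that have copied their DNA and are about to divide. The members were taken by symbol from the gene table of the series, and all 41 of 41 were found among its 32285 genes. They were followed in mouse bone marrow profiled by droplet single-cell RNA sequencing with a 3′ chemistry, which counts unique molecular identifiers (UMIs), 1 per captured transcript. Libraries fusion 1 and fusion 2 came from mice with the genotype Ep300-Znf384-V5-HA, an epitope-tagged fusion of the acetyltransferase gene Ep300 with the zinc-finger gene Znf384, and the comparison library came from wild type. All 3 libraries came from males aged 6 weeks, and each mixed 5000 viable unsorted marrow cells with 5000 viable cells depleted of lineage-positive cells, red cells having been lysed, so cell shares below are shares of that mixture and not of native marrow. The sources used here do not give the promoter that drives the fusion or say whether the fusion libraries came from separate animals. With a single wild-type library, genotype and library cannot be told apart.

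The module is switched on in order. In resting cells the DREAM complex holds its promoters silent, and in G2 the MuvB core of that complex joins B-Myb and FOXM1 to activate them. The products run mitosis: cyclin B and Cdk1 start it, Plk1 and the Aurora kinases build and correct the spindle, Cdc20 and Ube2c direct the anaphase-promoting complex that destroys cyclin B and securin, and Anln, Ect2 and Kif23 pinch the cell apart. In marrow these genes mark amplifying progenitors, early erythroid cells, large pre-B precursors and dividing promyelocytes, while mature neutrophils and resting lymphocytes have left the cycle.

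The promoters of the members carried the letters that such regulators are known to recognise, and 6 are shown here for how these letters are spaced. RefSeq windows from 250 bases before to 50 after each start (GRCm38.p6) were matched for 35 of the 41 members; Ccna2, Aurkb, Kif20a, Tpx2, Dlgap5 and Smc4 were not matched. The letters TTTGAA, the core of the cell cycle genes homology region, were searched on both strands and stood in 26 of the 35 members (74.3%) against 20.2% of 27025 genes with a window of the same length. The letters CCAAT, the NF-Y element, stood on either strand in 29 members (82.9%) against 41.1% of genes. Windows with CCAAT at 2 or more places made up 62.9% of members against 13.3% of genes, and windows with both elements 68.6% against 7.97%. In 23 of the 26 members with TTTGAA, at least 1 copy began between position -40 and position 45 from the start. This count was not made for all genes, so it does not show a preference of the members for that stretch. Below are the 110 bases before and 10 after the start of 6 members, 5′ to 3′ on the gene's strand, with TTTGAA and CCAAT, or their reverse complements (TTCAAA and ATTGG), in capitals: Ube2c (chr2:164769819-164769938, plus strand), Cdk1 (chr10:69352903-69353022, minus), Top2a (chr11:99024180-99024299, minus), Cdc20 (chr4:118437334-118437453, minus), Kif11 (chr19:37376272-37376391, plus) and Kif23 (chr9:61946790-61946909, minus).
Ube2c: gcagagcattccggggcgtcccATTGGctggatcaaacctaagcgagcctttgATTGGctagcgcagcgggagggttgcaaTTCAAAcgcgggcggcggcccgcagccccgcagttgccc
Cdk1: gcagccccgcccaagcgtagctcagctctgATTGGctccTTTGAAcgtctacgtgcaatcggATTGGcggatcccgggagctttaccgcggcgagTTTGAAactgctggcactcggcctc
Top2a: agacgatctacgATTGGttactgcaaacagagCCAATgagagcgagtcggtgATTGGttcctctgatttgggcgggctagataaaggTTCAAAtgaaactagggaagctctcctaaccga
Cdc20: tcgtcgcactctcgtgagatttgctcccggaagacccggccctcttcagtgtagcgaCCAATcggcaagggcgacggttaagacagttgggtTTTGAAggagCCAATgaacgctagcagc
Kif11: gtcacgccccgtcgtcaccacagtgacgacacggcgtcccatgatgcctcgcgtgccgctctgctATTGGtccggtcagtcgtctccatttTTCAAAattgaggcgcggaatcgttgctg
Kif23: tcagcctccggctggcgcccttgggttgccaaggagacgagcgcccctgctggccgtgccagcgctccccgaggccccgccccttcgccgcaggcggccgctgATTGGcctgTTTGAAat
In Ube2c and Top2a a CCAAT letter run stood upstream of a TTTGAA letter run close to the start. Cdk1 held TTTGAA at 2 places of its window, beginning at positions -71 and -15. Kif23 held its single CCAAT and single TTTGAA next to each other at the start itself, with TTTGAA beginning at position 3. The members Birc5, Nuf2, Nusap1 and Tacc3 held neither run in the window. These are letter matches and not measured binding.

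After quality filters and removal of predicted doublets, 7313, 6895 and 7431 cells of fusion 1, fusion 2 and wild type were kept, with medians of 7360, 10008 and 7430 UMIs per cell. Clustering was done without the members or other cell cycle genes and gave 26 clusters, which marker genes grouped into 14 classes. A cluster led by Muc13, F2r and Meis1 had erythroid progenitors as its best marker list but none of that list's genes among its top 10, and it is called the Muc13-led cluster here. Libraries shared 19 to 23 cell barcodes per pair, at most 0.283% of the smaller library. Mature neutrophil clusters separated by genotype: a cluster led by Prok2 held 855 and 663 fusion cells and 0 wild-type cells, one led by Igfbp6 held 839, 624 and 2, and one led by Wfdc17 held 8, 8 and 1073. Of the immature clusters, one led by Gpr27 and Olfm4 (508, 423 and 7 cells) and one led by Thbs1 (7, 19 and 856) separated too, while those led by Orm1 (540, 444 and 292) and by Fcnb (321, 278 and 244) held all libraries.

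Members differed in how far their levels in cells called cycling stood above those in other cells, with all classes pooled. A cell was called cycling when, after thinning to 2000 UMIs, it held at least 3 UMIs of 38 members, leaving out Hmgb2, Smc4 and Cks2, which cells outside G2 and M also express; to score a member, it was left out of the call. Levels were taken as CPM, UMIs scaled to a common library total. Ube2c, the ubiquitin-conjugating enzyme of the anaphase-promoting complex, stood 18.4-, 23.2- and 19.3-fold higher in cycling than in other cells of fusion 1, fusion 2 and wild type. Hmmr, Plk1 and Nusap1 followed with mean ratios of 20.1, 20.1 and 19.8. Over the 38 members the ratio ran from 3.67 (Ckap2) to 20.3, with a median of 7.74 and 15 members over 10-fold. Because the classes were pooled, a ratio also holds differences in a member's level between classes. Ratios within a class were not taken.

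**Figure D1:**
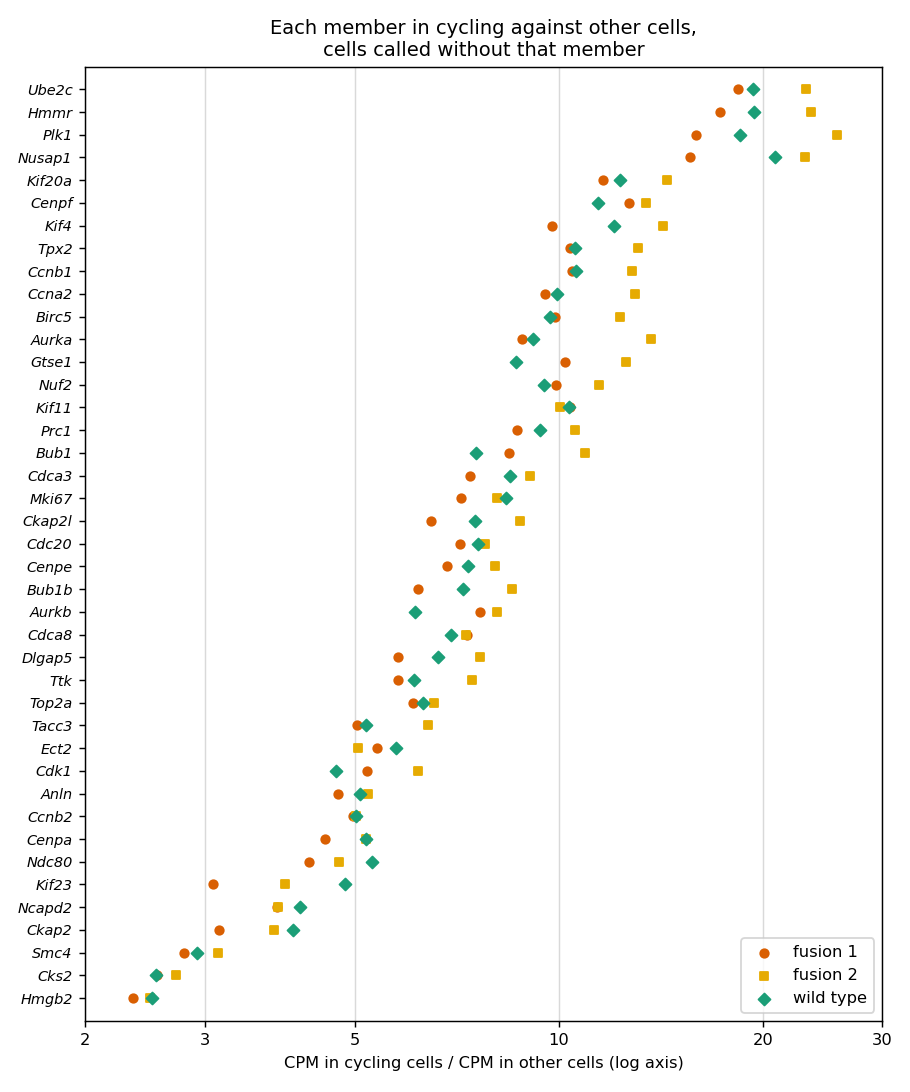
Ratio of a member's CPM in cycling cells to those in other cells, on a log axis, 1 point per library, members ordered by the mean of the 3 libraries. Ube2c, Hmmr, Plk1 and Nusap1 stand apart, from 15.6 to 25.8 in single libraries, and Smc4, Cks2 and Hmgb2 lie lowest, between 2.35 and 3.14.

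By role, the spindle motors and microtubule proteins were the widest group, from Hmmr at 20.1 to the microtubule protein Ckap2 at 3.67 among 13 genes. The cyclins Ccnb1 and Ccna2 (11.3 and 10.8) stood above Cdk1 (5.37) and Ccnb2 (4.997), and above Cks2 (2.61), the small Cdk-binding subunit. The mitotic kinases ranged from Ttk at 6.44 to Plk1 at 20.1, and the kinetochore and centromere genes from Ndc80 at 4.77 to Cenpf at 12.5. Birc5, the survivin subunit of the chromosomal passenger complex, reached 10.6 and its partner Cdca8 7.18. Ect2 and Anln, which drive the cleavage furrow, stood at 5.39 and 5.01. The proliferation antigen gene Mki67 and topoisomerase Top2a had ratios of 7.88 and 6.31.

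UMIs were spread unevenly over the 41 genes. The 3′ chemistry tags each transcript once, so these shares are not divided by length. Hmgb2, a chromatin protein of the high-mobility group, alone held 32.3% of all member UMIs, and with Cks2 and the condensin gene Smc4 42.7%. Mki67 held 7.61% and Top2a 6.43%, while the cleavage genes Ect2 and Anln together held 0.949%. A plain sum over the members therefore follows Hmgb2 more than any mitotic gene. Members made up 0.695%, 0.691% and 0.685% of all UMIs of fusion 1, fusion 2 and wild type.

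Most cells called cycling also held S phase transcripts, but this overlap cannot tell which phases the call marks. In fusion 1, 38.2% of cells held at least 3 UMIs of both the members and a list of 40 S phase genes, and 5.87% held the members without the S phase genes. The pairs were 37.1% and 5.57% in fusion 2, and 33.3% and 6.76% in wild type. The S phase mark was itself broad. It was held by 93.4%, 93.8% and 93.6% of granulocyte-monocyte progenitors of fusion 1, fusion 2 and wild type. In T, NK and innate lymphoid cells it was held by 49.0%, 46.25% and 44.5%. Over all cells, cycling cells were also sequenced to more UMIs: their median depth before thinning was 19888, 21743 and 17795 UMIs against 5626, 6487 and 5620 in other cells. Mature neutrophils went the other way, at 2556, 2777 and 2494 UMIs in cycling against 2812, 3049 and 2825 in other cells.

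Over all cells, the share of cycling cells was 44.1% (exact 95% interval 42.8 to 45.3) in fusion 1, 42.7% (41.5 to 43.9) in fusion 2 and 40.0% (38.8 to 41.2) in wild type. Both fusion values lay above the wild-type interval, by a mean of 3.37 percentage points. The intervals were also apart at a cut-off of 5 UMIs. They were not apart at 2 or 10 UMIs, thinned to 1000 or 4000 UMIs, or without thinning. Nor were they with all 41 members or with Mki67 and Top2a alone. Cells under 2000 UMIs were left out, among them 761 of 1702, 252 of 1295 and 368 of 1075 mature neutrophils. The intervals cover counting error only, and the exact permutation test over the 3 labellings gave p = 0.333, the smallest it can give. When each library was given the class shares of the wild-type library, the shares became 39.4%, 38.8% and 40.0%, with wild type highest. Erythroid progenitors made up 21.4% and 20.9% of the kept fusion cells and 9.08% of wild-type cells. They were 42.1% and 39.2% of the cycling cells of the fusion libraries and 18.3% of those of wild type. Granulocyte-monocyte progenitors held the largest share of cycling cells in wild type, 27.0%, against 12.9% and 15.8%.

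Within classes, in none of the 14 were both fusion intervals clear of the wild-type interval in 1 direction. Every one of the 120, 189 and 105 erythroblasts with at least 2000 UMIs was called cycling, and 79.2%, 77.6% and 78.4% of erythroid progenitors. Granulocyte-monocyte progenitors stood at 58.3% (54.3 to 62.3), 57.9% (54.3 to 61.5) and 64.0% (61.2 to 66.8), where the fusion intervals met the lower end of the wild-type interval. Both fusion intervals lay below it at 2 UMIs, thinned to 4000 UMIs and with all 41 members, but not at 5 or 10 UMIs or without thinning. Basophils and mast cells stood at 23.2%, 25.4% and 29.7%. Thinned to 4000 UMIs they stood at 38.1%, 38.1% and 55.7%, with both fusion intervals below, and without thinning at 55.5%, 54.9% and 53.4%. Megakaryocytes gave 61.8%, 65.3% and 53.7%, and plasmacytoid dendritic cells 46.6%, 50.7% and 42.5%. Pro-B cells gave 44.1%, 49.6% and 54.2%, and the joined stem and lymphoid progenitors 31.0%, 29.1% and 33.6%. In monocytes the libraries of the fusion lay on either side of wild type, at 39.3% and 50.2% against 46.3%.

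**Figure D2:**
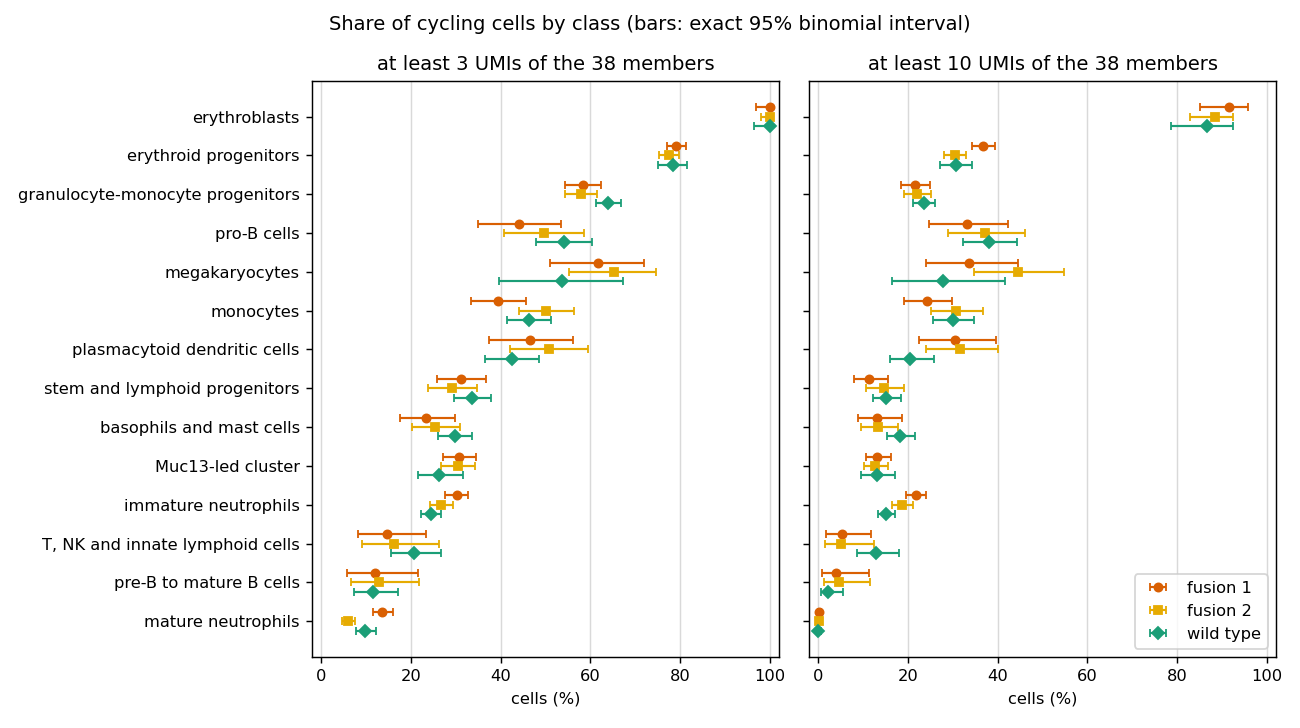
Percent of cells called cycling in each class and library, with exact 95% binomial intervals, at a cut-off of 3 UMIs (left) and of 10 UMIs (right) of 38 members after thinning to 2000 UMIs. Erythroblasts stay highest at both cut-offs, and mature neutrophils drop from between 5.85% and 13.6% to at most 0.106%.

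Classes that should hold few dividing cells were taken as background of the call. Only mature neutrophils were almost empty at the higher cut-off below, so the lymphoid classes are not a clean background. Pre-B to mature B cells stood at 12%, 12.8% and 11.48%, and mature neutrophils at 13.6%, 5.85% and 9.76%. T, NK and innate lymphoid cells stood at 14.6% (8.21 to 23.3), 16.25% (8.95 to 26.2) and 20.6% (15.5 to 26.6), with overlapping intervals. At a cut-off of 10 UMIs, chosen after these values were seen, mature neutrophils stood at 0.106%, 0.0959% and 0 of 707 cells (upper bound of the exact interval 0.520%), and B cells at 4.0%, 4.65% and 2.19%. At that cut-off plasmacytoid dendritic cells stood at 30.5% (22.4 to 39.7), 31.6% (23.9 to 40.1) and 20.5% (15.9 to 25.8). T, NK and innate lymphoid cells stood at 5.21% (1.71 to 11.7), 5.0% (1.38 to 12.3) and 12.8% (8.71 to 18.0), which are 5, 4 and 28 cells. Immature neutrophils stood at 21.7% (19.5 to 24.04), 18.7% (16.5 to 21.1) and 15.2% (13.3 to 17.2), where the interval of fusion 1 lay above that of wild type and the interval of fusion 2 overlapped it. In this class the direction turned with the grouping of cells. At the cut-off of 3 UMIs the shares were 30.1%, 26.7% and 24.4%. They were 27.9%, 24.6% and 44.7% with cell cycle genes left in the clustering, and 32.6%, 30.2% and 44.8% with predicted doublets kept. The main grouping held a Thbs1-led cluster in this class, with 4.05% of its 839 wild-type cells cycling. With cell cycle genes left in, a Thbs1-led cluster (6, 7 and 524 cells) was unnamed and outside the class. With doublets kept, such a cluster (4, 9 and 838 cells) was named mature neutrophils.

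Expression of each member was then compared between genotypes, with UMIs summed per library and class and fitted by edgeR's quasi-likelihood test over all genes. Levels below are CPM of the summed UMIs on TMM-scaled library sizes, given in the order fusion 1, fusion 2, wild type. Only the fusion libraries are replicated, which leaves 1 residual degree of freedom. The p-values rest on the spread between these libraries, which may be technical. edgeR moderates that spread over the genes of a class, so a p-value is not set by a member's own spread alone. In summed counts, fewer dividing cells and fewer transcripts per dividing cell cannot be told apart. The members are high in the same cells, so members called or of 1 sign are not independent of each other. Their counts below are therefore not many separate results, and the share of all genes is given as a base rate only. Over all cells 0 of 41 members passed an adjusted p of 0.05, where 15.8% of 15471 genes did. DESeq2 also called 0, and 3 members had an unadjusted edgeR p under 0.05 (27.8% of genes). The median log2 fold change of the members was 0.11, against 0.00372 for all genes tested. Cenpa, the centromeric histone, stood at 249.5, 229 and 175 CPM (log2 fold change 0.45 ± 0.20 SE, edgeR adjusted p = 0.137), and Ube2c at 305, 283 and 221 (0.41 ± 0.21, adjusted p = 0.205). Plk1 stood at 52.1, 56.6 and 43.4 CPM (0.32 ± 0.14, adjusted p = 0.127).

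Across classes, 18 of 561 tests of a member in a class passed, 16 lower and 2 higher in the fusion libraries, and they fell in 4 of the 14 classes. DESeq2 called no member in any class. The 4 classes were T, NK and innate lymphoid cells, basophils and mast cells, mature neutrophils and megakaryocytes.

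**Figure D3:**
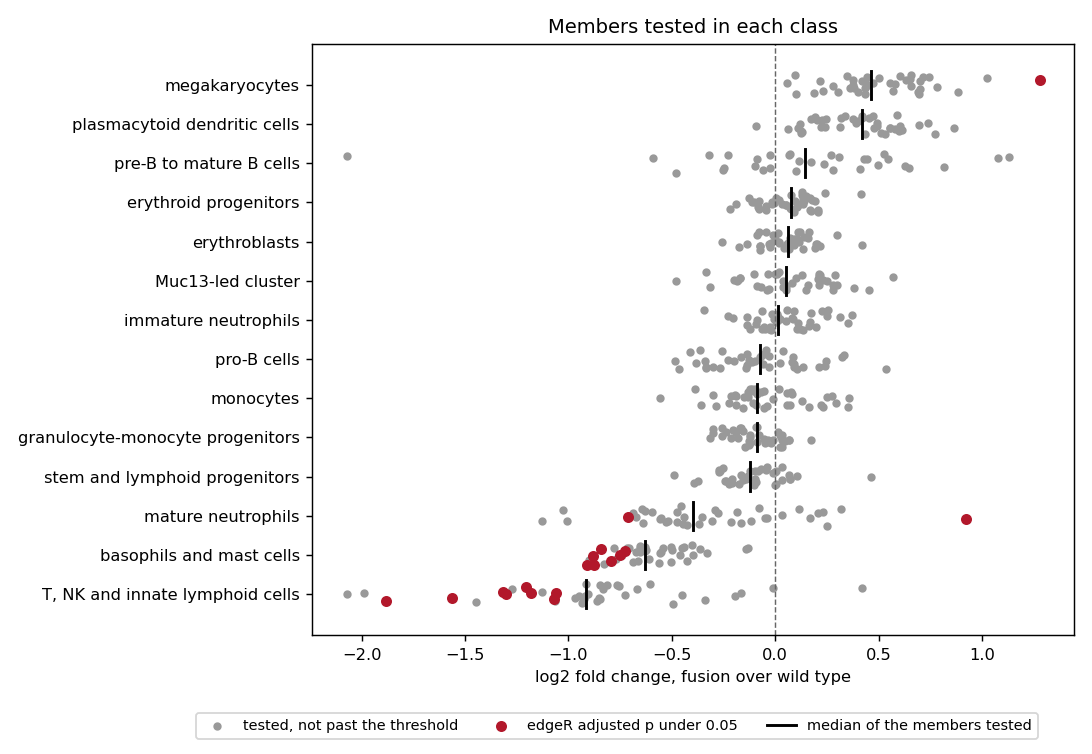
Log2 fold change, fusion over wild type, of each member tested in each class (points), with members past edgeR's threshold in red and the median of the members as a black line. Basophils and mast cells, and T, NK and innate lymphoid cells, lie to the left with medians of -0.63 and -0.91, and megakaryocytes and plasmacytoid dendritic cells to the right with 0.46 and 0.42.

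In T, NK and innate lymphoid cells 8 of 39 members tested fell, against 1.35% of genes called lower there, and 38 of the 39 had negative values. An unadjusted p under 0.05 was reached by 25 members and 9.49% of genes. Of the 96, 80 and 218 cells with at least 2000 UMIs, 5, 4 and 28 held at least 10 UMIs of the 38 members after thinning. Aurkb, the Aurora kinase of the passenger complex, stood at 20.9, 18.7 and 73.5 CPM (log2 fold change -1.88 ± 0.40 SE, edgeR adjusted p = 3.2e-04). Both fusion libraries lay far below wild type. The kinetochore motor Cenpe stood at 44.1, 32.0 and 114 CPM (-1.56 ± 0.34). Mki67 stood at 322, 253 and 655 CPM (-1.18 ± 0.27), and Hmgb2 at 1336, 1334 and 2806 (-1.07 ± 0.27). The spindle midzone protein Prc1 stood at 48.7, 93.4 and 175 CPM (-1.32 ± 0.29), Nusap1 at 51.0, 107 and 191, and Ccna2 at 13.9, 64.0 and 86.9. For Prc1, Nusap1 and Ccna2 the fusion libraries were unlike each other: fusion 1 alone gave -2.45 for Ccna2 and fusion 2 alone -0.43. Cdca8, with 46.4, 80.0 and 130 CPM, was the other member called, and Smc4 was the single member with a positive value (526, 464 and 371 CPM). Of the 59 other mitotic genes, 40 were tested and 3 fell (Ncapg, Sgo1 and Knl1, with log2 fold changes of -2.198, -2.15 and -1.39), and of 36 S phase genes tested Rrm2 fell (-1.50 ± 0.33).

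These T, NK and innate lymphoid cells numbered 111, 83 and 235, with median depths of 2953, 3983 and 4364 UMIs. The class joins a cluster led by Ccl5, Gzma and Cd3 genes (87, 71 and 156 cells) with one led by Gata3, Icos and Rora (24, 12 and 79 cells), so the mixture differed between genotypes too. In the first cluster alone Aurkb, Cenpe, Prc1 and Mki67 were called lower, 4 of 33 members tested against 0.978% of genes, with a median of -0.71. With the classes drawn at other clustering resolutions 1 member was called at each of resolutions 0.5 and 2, and with cell cycle genes left in the clustering or predicted doublets kept, 0. The part of depth and of the mixture in the fall was not tested.

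In basophils and mast cells 7 of 41 members fell, against 3.22% of genes called lower, and all 41 had negative values. An unadjusted p under 0.05 was reached by 31 members and 18.8% of genes. The 7 were Hmgb2 (1494, 1763 and 3059.9 CPM, log2 fold change -0.91 ± 0.21 SE, edgeR adjusted p = 0.0373), Prc1 (57.4, 75.9 and 124), Tacc3 (34.5, 31.6 and 60.3), Cenpe (65.9, 55.0 and 108), Cenpf (106, 106 and 184), Ccna2 (43.5, 43.1 and 72.8) and Top2a (334, 343 and 561). Their changes ran from -0.91 to -0.73, and in each both fusion libraries lay below wild type. Prc1 and Tacc3 organise spindle microtubules, Cenpe and Cenpf sit at the outer kinetochore, and Top2a untangles sister chromatids. Cks2, Ncapd2 and Smc4 had the smallest values, -0.13 ± 0.21, -0.14 ± 0.18 and -0.33 ± 0.18, and did not pass. Of 58 other mitotic genes tested 5 fell, among them Kif2c (-1.11 ± 0.25), Sgo1 (-0.95 ± 0.21), Kif20b (-0.78 ± 0.16) and Spc25 (-0.77 ± 0.18). None of the 40 S phase genes was called, and their median was 0.01.

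The class again joined unlike clusters. A basophil cluster led by Prss34 and Mcpt8 held 125, 185 and 555 cells, and a cluster led by Scin, Gzmb and Cma1 held 75, 88 and 50. Within the Prss34-led cluster Cenpe and Prc1 were called lower, 2 of 41 members against 2.33% of genes, the median was -0.43, and 22.6%, 30.3% and 30.9% of its 124, 185 and 543 cells with at least 2000 UMIs were cycling. In the other cluster 24.3%, 14.9% and 16.3% of such cells were cycling. Median depth over the class was 6595, 7634 and 4681 UMIs. With predicted doublets kept, edgeR called 0 members there, with no filter on low counts 22. The part of the mixture in the fall was not tested.

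In mature neutrophils, which have left the cycle, Kif23 rose while Hmgb2 fell. These 2 were the members called among 40 tested, where 3.90% of genes were called higher and 5.79% lower. Kif23, a motor of the spindle midzone and midbody, stood at 137, 105 and 63.8 CPM (log2 fold change 0.92 ± 0.23 SE, edgeR adjusted p = 0.0012), and each fusion library lay above wild type. With DESeq2 its adjusted p was 0.278. Hmgb2 stood at 1126, 1343 and 2024 CPM (-0.71 ± 0.24, adjusted p = 0.0319). Mki67 and Top2a were low in all libraries, at 42.8, 35.6 and 56.6 CPM and at 47.9, 39.5 and 64.2 CPM. The median over the 40 members was -0.40, 8 were positive, and 7 had an unadjusted p under 0.05 (18.6% of genes). Among genes of the pathway, the securin gene Pttg1 rose (100.3, 87.8 and 46.4 CPM, 1.02 ± 0.24), as did E2f2 (215, 204 and 110 CPM) and Cdk2 (25.3, 15.6 and 10.2 CPM), and Cdc25b and Cenpw fell. Because the clusters of these cells separated by genotype, no cluster with both genotypes was large enough to test within it.

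Kif23 also had an order over classes of its own. In wild type its highest levels were in plasmacytoid dendritic cells (180 CPM), pro-B cells (148) and monocytes (132), with erythroblasts at 88.2 and erythroid progenitors at 25.8. Mki67 in the same library was highest in erythroblasts (1829 CPM) and pro-B cells (1454) and stood at 494 in plasmacytoid dendritic cells. In mature neutrophils of the fusion libraries Kif23 lay above its level in erythroblasts (90.2 and 93.4 CPM).

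**Figure D4:**
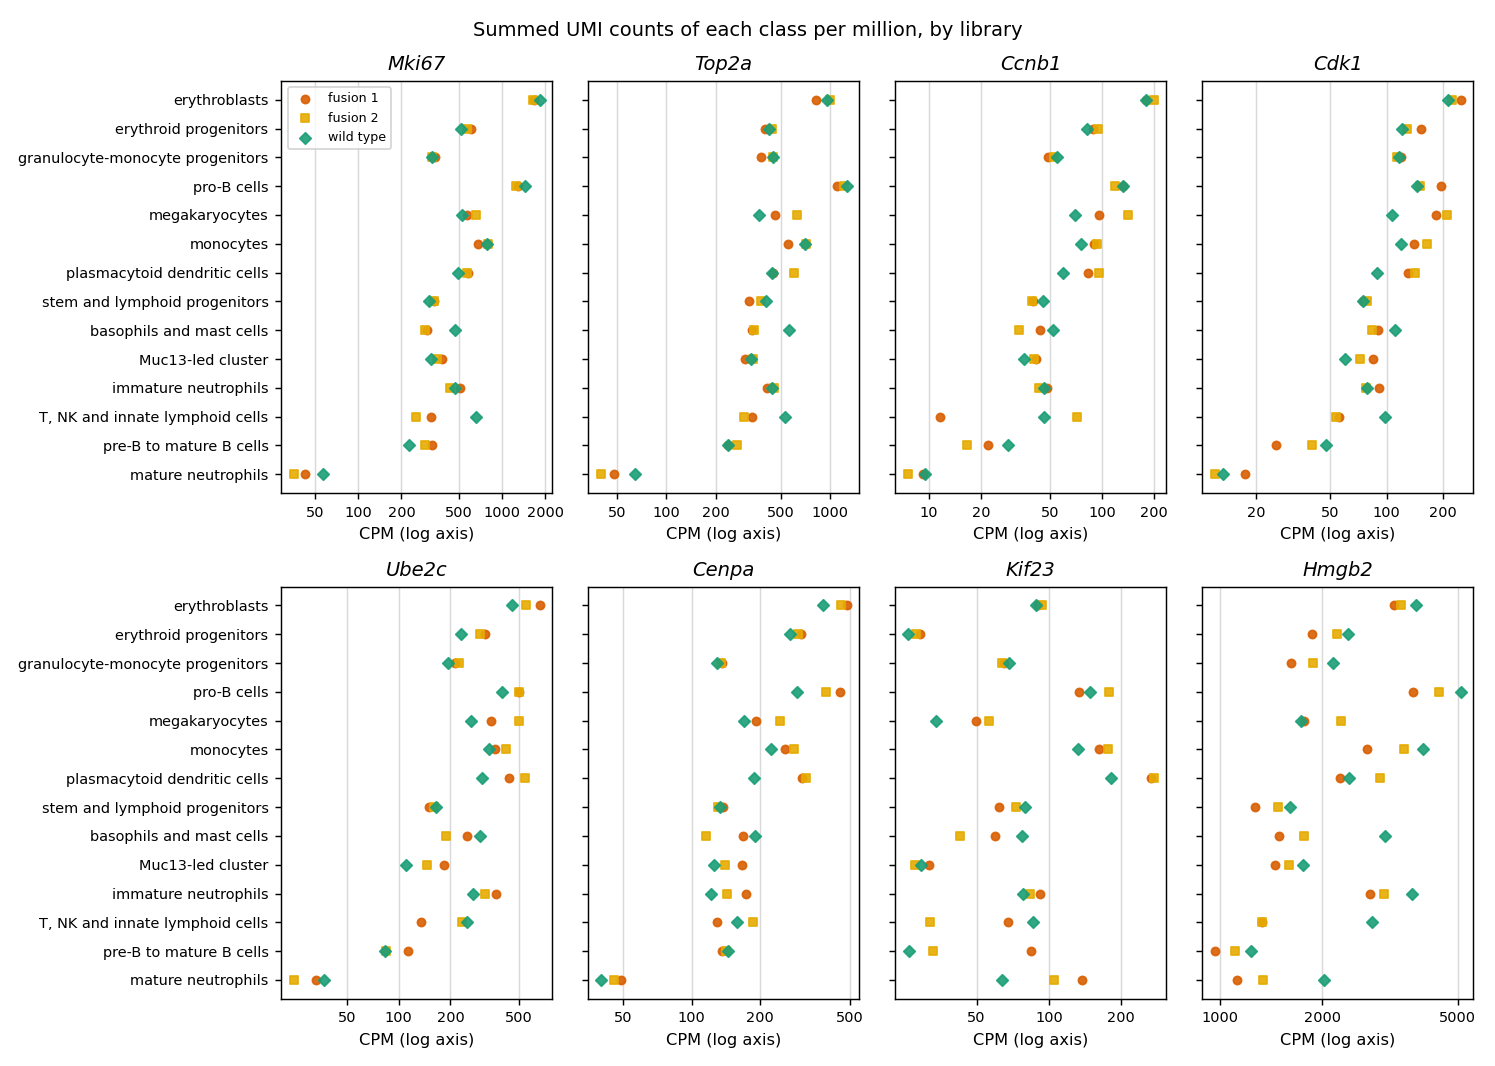
CPM of 8 members in the summed UMIs of each class, on log axes, 1 point per library, with classes in the same order in every panel. Kif23 does not follow the order of Mki67 and Top2a, and for Hmgb2 both fusion libraries lie left of wild type in 12 of the 14 classes.

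In megakaryocytes Nuf2, a subunit of the Ndc80 kinetochore complex, rose from 21.3 CPM in wild type to 50.1 and 53.1 (log2 fold change 1.28 ± 0.28 SE, edgeR adjusted p = 0.0379). It was the 1 member called of 40 tested, where 0.0947% of genes were called higher. Plk1 stood at 56.0, 91.4 and 36.7 CPM (1.03 ± 0.28, adjusted p = 0.160), Cdk1 at 183, 211 and 107 (0.88 ± 0.20, adjusted p = 0.0598) and Ccnb1 at 96.7, 142 and 69.7 (0.78 ± 0.24, adjusted p = 0.239). None of these 3 passed. All 40 values were positive, with a median of 0.46, and 19 had an unadjusted p under 0.05, as did 7.88% of genes. The Cdk inhibitor gene Cdkn2c rose as well (18.9, 19.98 and 3.67 CPM, 2.39 ± 0.54). The class held 109, 104 and 61 cells. Of the 89, 101 and 54 with at least 2000 UMIs, 30, 45 and 15 held at least 10 UMIs of the 38 members after thinning. The Nuf2 call was lost under DESeq2 size factors (adjusted p = 0.0598) and under every other clustering tried (0.0640 to 0.2499).

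Plasmacytoid dendritic cells had 0 of 41 members called by edgeR or DESeq2, where edgeR called 0.192% of genes. Of the members, 40 had positive values, with a median of 0.42, and 16 had an unadjusted p under 0.05, as did 5.83% of genes. Plk1 stood at 64.2, 81.3 and 40.1 CPM (0.87 ± 0.23 SE, edgeR adjusted p = 0.392), Cenpa at 307, 321 and 188 (0.74 ± 0.22) and Ube2c at 438, 545 and 304 (0.69 ± 0.24). The S phase genes did not share this sign, with 7 of 40 positive and a median of -0.14.

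Erythroblasts (14334, 13898 and 13702 CPM summed over the members, without TMM scaling) and pro-B cells (12933, 13470 and 14337) carried the highest summed levels, with erythroblasts first in the fusion libraries and pro-B cells first in wild type. Neither erythroblasts nor erythroid progenitors (7317, 7183 and 7092) had a call. In erythroid progenitors 0 of 41 members passed edgeR or DESeq2, where edgeR called 0.823% of genes, and 1 had an unadjusted p under 0.05 (8.44% of genes). Their median was 0.08. Mki67 stood at 611, 568 and 516 CPM, Top2a at 403, 444 and 423, Ccnb1 at 89.2, 94.3 and 81.5 and Cdk1 at 152, 128 and 121. Ube2c was the largest, at 318, 297 and 231 CPM (0.42 ± 0.17 SE, adjusted p = 0.535). In simulated counts for this class edgeR recovered 73% of 2-fold and 94% of 4-fold changes. Those counts had the same preset spread for every gene, not the spread of these libraries. The rates therefore do not tell how often such a change in a member would be found here. Erythroblasts also had 0 of 41 called by edgeR or DESeq2 (2.29% of genes; unadjusted p under 0.05 in 0 members and 11.1% of genes), with Mki67 at 1671, 1651 and 1829 CPM, Cdk1 at 251, 224 and 213, and Ube2c at 661, 549 and 453. The Cdc25b phosphatase gene, which activates Cdk1 and is no member, rose in both classes: 15.7, 20.2 and 7.54 CPM in erythroid progenitors (1.25 ± 0.19) and 104.7, 93.2 and 40.96 in erythroblasts (1.27 ± 0.20). E2f2 rose in erythroid progenitors (10.4, 9.48 and 4.58 CPM). The Muc13-led cluster had 0 of 41 called by either tool (0.309% of genes; unadjusted p under 0.05 in 3 members and 7.67% of genes), with Ube2c at 183, 146 and 111 CPM (0.57 ± 0.19, adjusted p = 0.4223).

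Immature neutrophils had 0 of 41 members called by edgeR or DESeq2, where edgeR called 8.33% of genes, and 1 had an unadjusted p under 0.05 (19.5% of genes). Ube2c stood at 367, 319 and 269 CPM (0.35 ± 0.18 SE, edgeR adjusted p = 0.266), Cenpa at 173, 143 and 122 (0.37 ± 0.17) and Hmgb2 at 2755, 3041 and 3674 (-0.34 ± 0.22). These values depend on which cells are grouped. A cluster led by Fcnb, Chil3 and Camp held 294, 254 and 230 of the 397, 304 and 331 cycling cells of the class, which were 94.2%, 92.7% and 96.2% of its 312, 274 and 239 cells with at least 2000 UMIs. In a cluster led by Orm1, Ngp and Chil3 the cycling shares were 15.8% (12.7 to 19.2), 8.47% (6.03 to 11.48) and 24.5% (19.5 to 29.99), and Nusap1, Top2a, Plk1 and Prc1 were called lower, 4 of 41 members against 0.485% of genes, with a median of -0.98. There Ube2c had a log2 fold change of -0.74 and Cenpa of -0.44, against their positive values over the class. The inhibitor gene Cdkn1a, which blocks Cdk2 and Cdk1, fell in the class (1.59, 1.496 and 5.53 CPM, -1.83 ± 0.39) and over all cells (10.0, 10.4 and 26.05 CPM, -1.35 ± 0.14).

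In the other 5 classes neither edgeR nor DESeq2 called a member. In granulocyte-monocyte progenitors 0 of 41 passed (0.147% of genes), and 0 had an unadjusted p under 0.05 (7.62% of genes). In stem and lymphoid progenitors 0 of 41 passed (2.93%), with 2 under an unadjusted 0.05 (11.6%), and in monocytes 0 of 41 (1.69%), with 0 (9.61%). Pro-B cells had 0 of 41 (0.839%), with 1 (7.17%), and pre-B to mature B cells 0 of 32 tested (0.448%), with 2 (4.25%). In granulocyte-monocyte progenitors Mki67 stood at 343, 325 and 328 CPM, Ccnb1 at 48.9, 52.5 and 55.3 and Aurkb at 66.7, 77.1 and 88.6 (-0.30 ± 0.15 SE). In stem and lymphoid progenitors Mki67 stood at 336, 336 and 313 CPM, and Anln, the furrow scaffold, at 21.4, 15.9 and 26.1 (-0.49 ± 0.22). Monocytes held Cdk1 at 140, 166 and 120 CPM and Dlgap5 at 43.8, 50.5 and 61.8. Pro-B cells held the highest Top2a of any class, 1109, 1221 and 1272 CPM, with Cenpa at 452, 391 and 290.1 (0.54 ± 0.25). In pre-B to mature B cells 9 members were too low to test, and Ccnb2 stood at 40.3, 54.2 and 27.3 CPM (0.82 ± 0.51).

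The side of wild type on which both fusion libraries lay was also counted over the 14 classes. Hmgb2 lay below in 12 classes, as 1 of 41 members and 2.62% of the 5262 genes tested in every class did. Its exceptions were plasmacytoid dendritic cells (2252, 2947 and 2389 CPM) and megakaryocytes (1766, 2272 and 1737). Ube2c and Cenpa lay above in 10 classes each, 2 of 41 members, where 9.31% of those genes reached that count. Some members, such as Ect2 and Gtse1, were not tested in every class, so the shares over 41 members and over those genes are not on the same base. Counts of 1 and 2 members are too few to set the members apart from all genes, and the classes share libraries.

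Genes outside the cell cycle lists whose levels followed the summed members most closely were found over the 42 class and library sums, among 6263 genes. Ccnf led with a Spearman rho of 0.948, followed by Asf1b (0.946), Cip2a (0.945), Plk4 (0.931) and Esco2 (0.914). Ccnf encodes cyclin F, Asf1b a histone chaperone, Plk4 the kinase of centriole duplication and Esco2 a cohesin acetyltransferase. The sums share libraries and depth, so rho is a description.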

How the data were processed

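Bone marrow of 1 wild-type and 2 fusion libraries was measured. Per the submitters' processing notes, the authors ran Cell Ranger 5.0.1 (GRCm38) after bcl2fastq 2.20.0.422, and they deposited UMI counts per gene and barcode for 9057, 8122 and 9354 barcodes (fusion 1, fusion 2, wild type; 97192347, 111836603 and 93262028 UMIs). Here, barcodes under 1000 UMIs, under 400 genes or over 10% mitochondrial UMIs were dropped, and Scrublet's predicted doublets removed (225, 318 and 194). scanpy 1.11.5 clustered the cells (2000 variable genes, 30 components, 15 neighbours, Leiden resolution 1) without cell cycle genes, and fixed marker lists named clusters. Stem and lymphoid lists scored alike in 1 cluster and were joined. Cells under 2000 UMIs (998, 395 and 654) were left out of cycling shares. Clopper-Pearson 95% intervals cover counting error only. A share was called apart when both fusion intervals lay on 1 side of the wild-type interval. edgeR 4.0.16 (TMM, filterByExpr, glmQLFit, Benjamini-Hochberg over all genes of a class) was the main test and DESeq2 1.42.0 an alternative. edgeR was tested on simulated counts, drawn with the same preset spread for every gene and not the spread of these libraries. In megakaryocytes it recovered 47% of 2-fold and 87% of 4-fold changes, with 7 false calls among 9500 genes, and in erythroid progenitors 15 among 12754. Named members were taken from those past the threshold in a class, up to 6 by size, or otherwise from the 3 largest with a mean of at least 20 CPM and both fusion libraries on 1 side. Other genes are up to 4 per list past the threshold. Mki67, Top2a, Ccnb1, Cdk1, Hmgb2 and Ube2c are plotted in every class. Further members and clusters were named after their values were seen. The members and lists were chosen with earlier results of these data known. Alternatives covered normalization, count filter, tool, clustering, doublets, depth, cut-off and leaving out a library.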

Additional observations from a re-analysis of the deposited data

Results flagged for a closer look

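Summed over all members, the level in the fusion libraries differed in sign between classes under the same contrast. The mean log2 ratio to wild type was -0.75 in T, NK and innate lymphoid cells (4143, 4203 and 7033 CPM in fusion 1, fusion 2 and wild type) and -0.56 in basophils and mast cells (5291, 4899 and 7490 CPM). It was 0.43 in megakaryocytes (7667, 9092 and 6180 CPM) and 0.33 in plasmacytoid dendritic cells (8174, 9179 and 6885 CPM). Each fusion library lay on the same side within each of these classes, which were picked for this sum. Of the other classes, mature neutrophils had the largest mean log2 ratio, -0.48 (2172, 1917 and 2843 CPM). Hmgb2 held 32.3% of all member UMIs, so the sum follows it more than any other member. In TMM-scaled CPM Hmgb2 stood at 1494, 1763 and 3060 in basophils and mast cells, and at 1126, 1343 and 2024 in mature neutrophils. A sum without Hmgb2 was not taken. The difference between the classes itself was not tested.

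Cdc25b, the phosphatase gene that activates Cdk1 and is outside the 41 members, moved in opposite directions in 3 classes. It fell by 1.52 on the log2 scale in mature neutrophils (6.67, 8.06 and 21.1 CPM), with a fitted value of -1.52, and rose by 1.25 in erythroid progenitors and 1.27 in erythroblasts. The difference between these classes was not tested.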

How the results depend on the processing

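No paired analysis was possible because the labels give the genotypes no shared replicate numbers and there is 1 wild-type library. Members called lower in basophils and mast cells (7) became 22 with no count filter, 0 with DESeq2 or doublets kept, 13 with equal numbers of cells, 11 and 18 at Leiden resolution 0.5 and 2, 11 with cell cycle genes in the clustering and 2 in the largest shared cluster (chosen after seeing the data). In T, NK and innate lymphoid cells (8) they became 0 with DESeq2, doublets kept or cell cycle genes, 1 with equal numbers of cells or either resolution and 4 in the largest shared cluster. The 1 higher call in megakaryocytes became 4 with no filter and 0 with DESeq2, its size factors, equal numbers of cells, either resolution, cell cycle genes or doublets kept. Mature neutrophils had 0 calls with DESeq2 and 0 lower with cell cycle genes. Lower calls in immature neutrophils became 4 (largest shared cluster) and 3 (cell cycle genes). With equal numbers of cells plasmacytoid dendritic cells and the Muc13-led cluster had 1 higher call each, and at resolution 2 stem and lymphoid progenitors had 2 lower.

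The ratio of the cycling share over all cells (1.0842) was 1.0337 at 2 UMIs, 1.1096 at 5 and 1.1048 at 10. It was 1.0892 thinned to 1000, 1.0159 thinned to 4000, 1.0245 without thinning and 1.0206 for Mki67 and Top2a alone. It reversed to 0.9709 with all 41 members and to 0.9766 with wild-type class shares. Leaving out 1 fusion library gave 1.0672 to 1.1013. Classes with a lower share (0) became 1 at 2 UMIs (granulocyte-monocyte progenitors) and 2 at 4000 UMIs (that class and basophils and mast cells). They became 3 with all 41 members (granulocyte-monocyte progenitors, mature and immature neutrophils), 2 with cell cycle genes and 1 with doublets kept. Those higher became 1 without thinning, the Muc13-led cluster. In immature neutrophils Cenpa reversed to -0.4422 (largest shared cluster) and -0.134 (cell cycle genes), and Ube2c to -0.7362, -0.2365 and, with doublets kept, -0.0772. Cdk1 in the Muc13-led cluster reversed to -0.0072 with cell cycle genes. The cause was not tested. Leaving out 1 fusion library moved the members' median between -0.71 and -0.50 in basophils and mast cells, -1.02 and -0.83 in T, NK and innate lymphoid cells, 0.27 and 0.63 in megakaryocytes, and -0.53 and -0.20 in mature neutrophils. Cells in small classes and 1 wild-type library limit what these data resolve.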
